A study of Mus musculus with 10 samples.

Results

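The TNF superfamily outside the RANKL axis was followed in mammary epithelial cells (MECs) and mammary macrophages of mice with and without Cebpb in CSF1R-expressing myeloid cells. Its members were taken by gene symbol: every protein-coding gene named Tnfsf or Tnfrsf plus a number, together with Tnf, Lta, Ltb, Ltbr, Cd40, Cd40lg, Fas, Fasl, Cd27 and Cd70, and without Tnfsf11, Tnfrsf11a and Tnfrsf11b. This gave 38 genes of the 55487 in the count tables, namely 16 ligands and 22 receptors.

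Both genotypes were 10-week-old BALB/c females in diestrus that carried 2 floxed Cebpb alleles (Cebpb fl/fl). WT mice lacked Csf1r-Cre, and CebpbΔM mice carried it, so that Cebpb is removed wherever this promoter drives Cre, in all CSF1R-positive myeloid cells and not in macrophages alone. The labels name this genotype a C/EBPb knockdown. MECs were obtained from collagenase-digested glands by differential centrifugation and removal of lineage-positive cells (WT libraries 1 and 3, CebpbΔM libraries 1 and 3), and macrophages were obtained by positive selection for F4/80 (WT libraries 4 and 5, CebpbΔM libraries 4, 5, 6 and 7). Nothing in the labels says whether the libraries of a group came from separate animals, so P values measure the spread between libraries.

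Ligands of this superfamily are mostly trimers held on the surface of a cell, from which some, TNF among them, are shed by proteases. The receptors fall into those with a death domain, such as FAS, TNFR1 (Tnfrsf1a), TRAIL-R (Tnfrsf10b), DR3 (Tnfrsf25) and DR6 (Tnfrsf21), those that bind TRAF adaptors and lead to NF-kB, such as CD40, TNFR2 (Tnfrsf1b), Fn14 (Tnfrsf12a), lymphotoxin beta receptor (Ltbr), 4-1BB (Tnfrsf9) and GITR (Tnfrsf18), and decoys that bind ligand without a full signalling tail, such as the mouse TRAIL decoys Tnfrsf22 and Tnfrsf23. In most tissues, immune cells make many of the ligands, and epithelium carries some of the receptors.

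Of the 38 genes, 22 lay in 9 clusters with gaps of at most 200 kb between neighbours. On chromosome 17 of GRCm38, Ltb, Tnf and Lta lay at chr17:35194439-35205351, and Tnfsf9, Cd70 and Tnfsf14 at chr17:57105325-57194177. The related receptors Tnfrsf26, Tnfrsf22 and Tnfrsf23 lay together at chr7:143607659-143685872.

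Because the deleted gene encodes a transcription factor, and NF-kB acts downstream of these receptors, promoters were searched for a C/EBP-type motif (TTGCNNAA) and an NF-kB-type motif (GGG, any 2 bases, then TTTCC) on both strands, in the 250 bases before each start site in RefSeq (GRCm38.p6). RefSeq starts were held for 29 of the 38 genes, with 33 promoters. The C/EBP-type letters stood in 1 of the 33, against 9.56% of all 32851 promoters, and the NF-kB-type letters in 3, those of Ltb, Tnfrsf9 and Tnfrsf25, against 1.41%. Shown are 2 promoters with the NF-kB-type letters, the only 1 with the C/EBP-type letters, and the promoter of Tnf, which held neither, each 5′ to 3′ on the strand of its gene with the match in capitals. A match is only a run of letters. Tnfrsf9 and Tnfrsf25 each had a further promoter with no match.
Tnfrsf9, chr4:150927749-150927998, plus strand: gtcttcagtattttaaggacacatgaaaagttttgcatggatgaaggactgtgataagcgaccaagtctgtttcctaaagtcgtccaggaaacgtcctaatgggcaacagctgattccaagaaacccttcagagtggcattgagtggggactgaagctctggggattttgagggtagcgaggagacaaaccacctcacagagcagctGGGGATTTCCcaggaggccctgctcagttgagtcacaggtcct
Tnfrsf25, chr4:152115684-152115933, plus strand: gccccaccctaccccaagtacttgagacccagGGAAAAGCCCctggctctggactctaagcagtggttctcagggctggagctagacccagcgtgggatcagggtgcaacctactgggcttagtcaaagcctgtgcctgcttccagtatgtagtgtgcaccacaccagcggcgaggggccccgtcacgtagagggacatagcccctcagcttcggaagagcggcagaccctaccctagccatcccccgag
Tnfrsf23, chr7:143685876-143686125, minus strand: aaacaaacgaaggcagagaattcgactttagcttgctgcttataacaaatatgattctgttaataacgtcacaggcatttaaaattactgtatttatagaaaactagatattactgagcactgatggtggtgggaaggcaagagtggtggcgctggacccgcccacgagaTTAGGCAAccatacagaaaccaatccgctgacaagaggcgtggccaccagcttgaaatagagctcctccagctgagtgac
Tnf, chr17:35202008-35202257, minus strand: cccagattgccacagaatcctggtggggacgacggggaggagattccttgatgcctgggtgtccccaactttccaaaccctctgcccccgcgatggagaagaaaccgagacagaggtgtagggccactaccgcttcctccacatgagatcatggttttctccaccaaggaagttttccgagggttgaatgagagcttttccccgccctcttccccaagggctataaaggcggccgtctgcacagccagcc

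Total counts were 25310926 to 27008166 in the MEC libraries and 16935000 to 20174722 in the macrophage libraries. Levels below are CPM, read counts scaled to the depth of the library, after TMM scaling of all 10 libraries, which adds a composition factor to the depth, and levels of different genes are compared only as CPM per kb of gene model. At these depths, 3 counts, taken as the floor of detection for counting error alone, came to 0.116 to 0.122 CPM in MECs and 0.143 to 0.18 CPM in macrophages. Cebpb itself lay at 0.651 and 0.713 CPM in WT macrophages and at 0.814, 0.632, 0.271 and 0.24 CPM in CebpbΔM macrophages, which overlapped and were under the filter for testing. In MECs it lay at 1.01 and 1.14 CPM in WT and 2.80 and 1.63 CPM in CebpbΔM (log2 fold change 1.06 ± 0.47 SE, adjusted P = 0.867). At these levels, and with the opposite-strand gene Tmem189 overlapping it, it gave no check of the genotype labels. The macrophage libraries held F4/80 (Adgre1) at 175 to 366 CPM, where MECs had at most 0.525, but they also held luminal epithelial markers, whose summed level was 31.6% of that in MECs for WT and 19.3% for CebpbΔM. Summed fibroblast markers lay at 4596 to 5165 CPM in WT macrophages and 2392 to 4939 CPM in CebpbΔM macrophages. In MECs they lay at 4392 to 5335 CPM in WT and 4952 to 5074 CPM in CebpbΔM. The part of fibroblast RNA in the members' levels was not tested. In such libraries fewer cells of a type and less RNA per cell cannot be told apart.

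In every group the family's message was carried by a few receptors and the ligand Tnfsf9. Of the summed level of the 38 genes, Tnf made up 1.45% in WT MECs and 0.855% in CebpbΔM MECs. Its share was 5.05% in WT macrophages and 7.02% in CebpbΔM macrophages. In WT MECs, Fn14 (Tnfrsf12a, chr17:23675445-23677468, minus strand), the receptor of TWEAK that is induced in injured and growing epithelium, stood at 501 ± 30.9 CPM per kb (SD, n = 2) and made up 62.3% of the summed level of the 38 genes. TNFR1 followed at 110 ± 18.2, the 4-1BB ligand Tnfsf9 at 58.9 ± 0.361, DR6 at 46.4 ± 5.51, Ltbr at 36.5 ± 5.50 and Tnf at 11.6 ± 1.64 CPM per kb (SD, n = 2). Neighbours in this order did not overlap between libraries, whereas the next pair, Tnfrsf1b and Fas, did. In CebpbΔM MECs, Fn14 led again at 524 ± 121 CPM per kb, but DR6 at 110 ± 31.6 now stood beside TNFR1 at 98.8 ± 21.4 (SD, n = 2), and those 2 receptors overlapped between libraries.

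In WT macrophages the order was led by TNFR1 at 113 ± 0.966 CPM per kb, 24.0% of the family's sum, followed by Tnfsf9 at 78.6 ± 3.27, Fn14 at 69.2 ± 18.6, Ltbr at 47.8 ± 7.58, DR6 at 47.5 ± 4.44, TNFR2 at 27.3 ± 3.99 and Tnf at 23.8 ± 1.74 CPM per kb (SD, n = 2). Tnfsf9 and Fn14, Ltbr and DR6, and TNFR2 and Tnf overlapped between libraries, so the order within these pairs was not resolved. The CebpbΔM macrophages had the same first 3, with TNFR1 at 112 ± 27.9, Tnfsf9 at 76.4 ± 21.6 and Fn14 at 67.7 ± 16.2 CPM per kb, and neighbours overlapped (SD, n = 4). TNFR1, the widely expressed receptor of TNF, thus had group means of 98.8 to 113 CPM per kb in the 4 groups. The number of ligands above 1 CPM in every library of a group was 7 of 16 in each of the 4 groups. For receptors it was 15 of 22 in WT MECs, 14 in CebpbΔM MECs, 17 in WT macrophages and 19 in CebpbΔM macrophages.

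**Figure D1:**
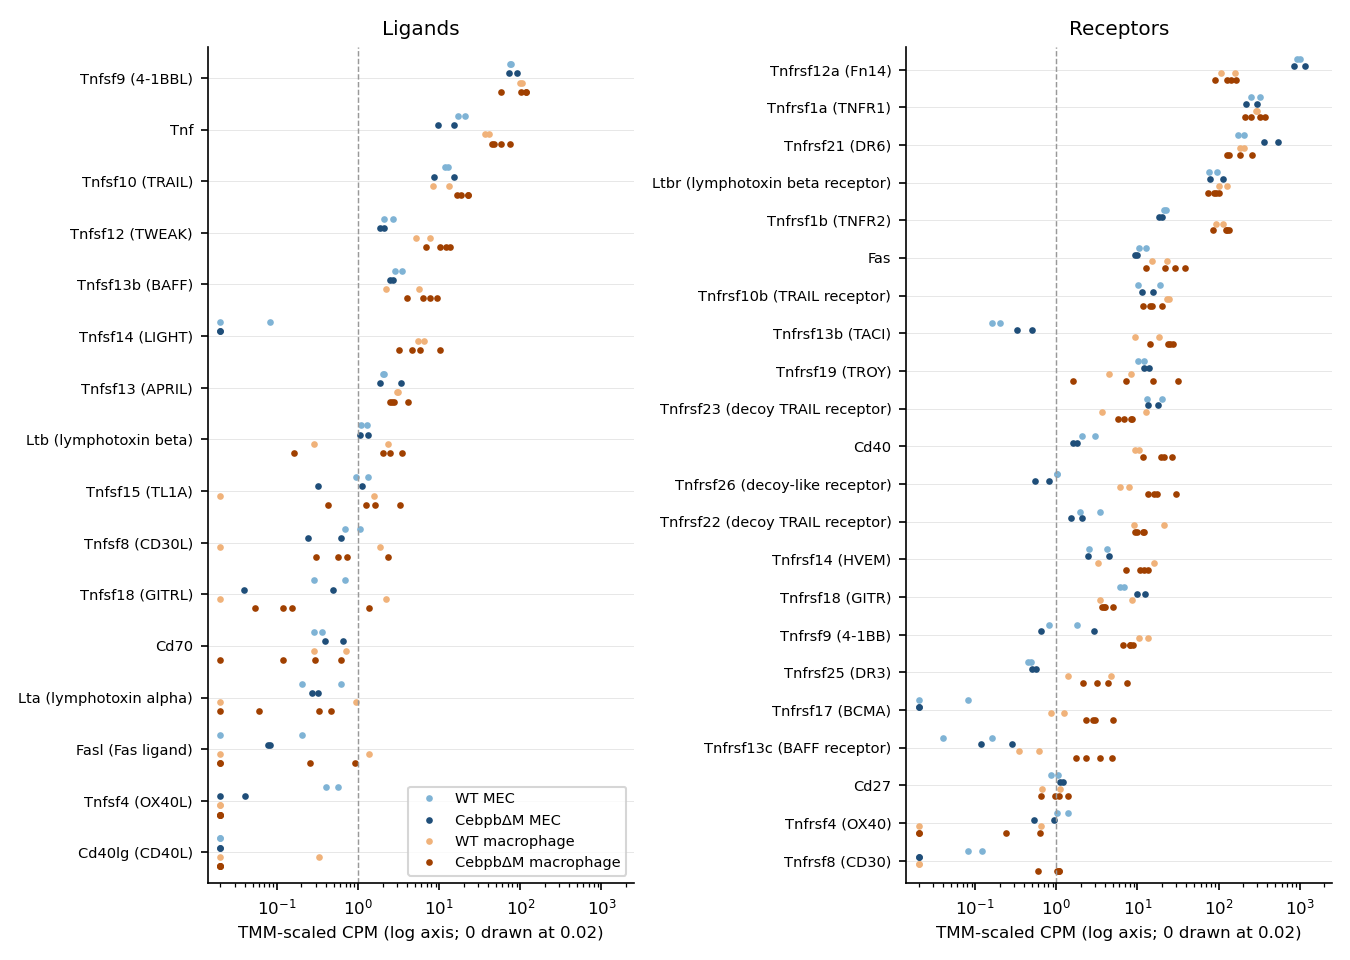
Level of each of the 38 members in the 10 libraries on a log axis in TMM-scaled CPM, 1 dot for each library and 1 colour for each group, with libraries at 0 drawn at the left of the axis. Tnfrsf12a reached 846 to 1178 CPM in MECs and 90.3 to 165 CPM in macrophages, while Lta, Cd70, Tnfsf4 and Cd40lg stayed at or under 1 CPM in all 10 libraries.

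Altogether 19 of the 38 genes, 6 ligands and 13 receptors, exceeded 1 CPM in all 10 libraries, and 4, all of them ligands, did so in none. These 4 were Lta, the OX40 ligand Tnfsf4, the CD27 ligand Cd70 and the CD40 ligand Cd40lg, which are best known from activated lymphocytes and antigen-presenting cells. Cd40lg had counts only in WT macrophage library 5, at 0.333 CPM. The FAS ligand Fasl exceeded 1 CPM only in the same library, at 1.38 CPM, and had no counts in 3 of the other macrophage libraries. Cd27 lay between 0.650 and 1.38 CPM throughout.

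Other members of low or middling level were uneven among the libraries of a group. TROY (Tnfrsf19), a receptor of epithelial and neural progenitors, lay at 10.2 to 14.0 CPM in the 4 MEC libraries, at 8.26 and 4.52 CPM in WT macrophages and at 31.3, 15.7, 1.63 and 7.14 CPM in CebpbΔM macrophages, libraries 4 to 7. The same 4 libraries held summed basal epithelial markers of 3252, 2078, 2020 and 756 CPM, whose part in the TROY values was not tested. Lymphotoxin beta (Ltb) lay at 1.05 to 1.34 CPM in MECs and between 0.163 and 3.45 CPM in macrophages. The CD30 ligand Tnfsf8 and the GITR ligand Tnfsf18 each reached over 1 CPM in some libraries and were near 0 in others of the same group, and OX40 (Tnfrsf4) exceeded 1 CPM only in WT MECs, at 1.37 and 1.01 CPM. HVEM (Tnfrsf14) lay at 2.48 to 4.42 CPM in MECs and at 3.26 to 15.9 CPM in macrophages.

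Pairing ligands with receptors, 25 pairs were considered, and a pair was counted where both genes exceeded 1 CPM in every library of their group. In WT glands this held for 7 pairs within MECs, for 10 with the ligand in MECs and the receptor in macrophages, for 8 with the ligand in macrophages and the receptor in MECs, and for 11 within macrophages. The same counts in CebpbΔM glands were 7, 13, 8 and 14. All 3 pairs added within CebpbΔM macrophages were those of BAFF-R (Tnfrsf13c) with BAFF, and of BCMA (Tnfrsf17) with BAFF and with APRIL, whose receptors were under 1 CPM in at least 1 WT macrophage library. The pairs of Lta, of the CD40, FAS, OX40, CD30 and GITR ligands, of CD70 and of TL1A (Tnfsf15) were counted in no direction. CD40 and FAS themselves still exceeded 1 CPM in all 10 libraries. These counts compare messages and not proteins.

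The comparison of WT macrophages with WT MECs asked in which cell type each ligand and receptor lay. Of the 32 members that passed the filter, 11 were higher and 1 was lower in macrophages at an edgeR adjusted P of 0.05 or less, against 28.1% of the 18323 genes tested (16% higher and 12.1% lower). The groups did not overlap for 21 members, against 65.1% of all genes. The median log2 fold change was 0.63 over the members tested and 0.06 over all genes. The other 6 members, Tnfsf4, Fasl, Cd40lg, Tnfrsf4, Lta and Cd70, did not exceed 1 CPM, before TMM scaling, in enough libraries for any test. The cell types also differ in isolation and in the count table that holds them, which cannot be told apart from cell type. In the same comparison 9 of 9 macrophage, 6 of 6 dendritic cell and 5 of 5 endothelial markers were called higher, the endothelial sum lying at 1382 to 1531 CPM in WT macrophages and 84.0 to 120 CPM in WT MECs, and 6 of 8 luminal and 5 of 8 basal markers were called lower. The part of each cell type in the members' values was not tested. Without WT MEC library 1, 7 members and 16.2% of all genes were called, and Cd40, Tnfrsf25, Tnfsf12, Tnfrsf17 and Tnf no longer passed. Without WT MEC library 3, 8 members and 15% of all genes were called, and Tnf, Tnfsf12, Tnfrsf17 and Tnfrsf25 were lost. Tnf was also lost without WT macrophage library 4 and Tnfsf12 without WT macrophage library 5.

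Of the ligands, LIGHT (Tnfsf14), which binds HVEM and the lymphotoxin beta receptor, had the widest macrophage-to-MEC difference of the 3 ligands called in WT. Its levels were 0 and 0.0811 CPM in WT MECs and 5.51 and 6.42 CPM in WT macrophages. With 2 counts over the WT MEC libraries against 245 over the WT macrophage libraries, the ratio per depth was 148 (95% counting interval 40.4 to 1226, edgeR adjusted P = 0.000831). Its receptors were found on both sides. Ltbr lay at 95 and 76.7 CPM in WT MECs against 100 and 125 CPM in WT macrophages (log2 fold change 0.39), and HVEM had a log2 fold change of 1.51 (adjusted P = 0.0898), neither of which was called.

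TWEAK and its receptor lay on opposite sides. Tnfsf12, which encodes TWEAK, rose from 2.67 and 2.11 CPM in WT MECs to 5.21 and 7.75 CPM in WT macrophages (log2 fold change 1.44 ± 0.43 SE, edgeR adjusted P = 0.0278). Fn14 was at 926 and 1011 CPM in WT MECs against 159 and 108 CPM in WT macrophages, a 7.24-fold difference (log2 fold change -2.86 ± 0.30 SE, edgeR adjusted P = 3.52e-05). The groups did not overlap for either gene, and Fn14 was the only member called lower in WT macrophages. The macrophage level of Fn14 was 13.8% of its MEC level in WT and 12.9% in CebpbΔM, where the summed basal epithelial markers stood at 14.4% and 28.7% and the luminal markers at 31.6% and 19.3%. The part of epithelial RNA in the macrophage value was not tested. Of the exon bases of Tnfsf12 and its neighbour Tnfsf13, 48.3% and 60.0% overlap the gene Tnfsfm13 on the same strand, so the counts of both are uncertain.

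Tnf, the best known macrophage cytokine of the family, lay at 21.0 and 17.2 CPM in WT MECs and at 41.1 and 37.0 CPM in WT macrophages. The groups did not overlap, and the 2.05-fold difference was called (log2 fold change 1.03 ± 0.30 SE, edgeR adjusted P = 0.0217). The macrophage-to-MEC contrast was smaller for Tnf than for its other receptor TNFR2 (Tnfrsf1b), which lay at 22.2 and 21.0 CPM in WT MECs and at 93.3 and 115 CPM in WT macrophages (log2 fold change 2.27 ± 0.24 SE, edgeR adjusted P = 3.88e-05). The difference between these fold changes was not tested. TNFR1 lay at 319 and 253 CPM in WT MECs and at 292 and 295 CPM in WT macrophages, with a log2 fold change of 0.04 that was not called.

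CD40, the TRAF-binding receptor through which T cells activate macrophages and B cells (chr2:165055627-165072948, plus strand), lay at 2.06 and 3 CPM in WT MECs and at 10.4 and 9.22 CPM in WT macrophages (log2 fold change 1.95 ± 0.42 SE, edgeR adjusted P = 0.00517). The costimulatory receptor 4-1BB (Tnfrsf9) rose from 1.82 and 0.811 CPM to 10.4 and 13.5 CPM (log2 fold change 3.18 ± 0.52 SE, edgeR adjusted P = 0.000892). Its ligand Tnfsf9 was abundant on both sides, at 76.3 and 75.6 CPM in WT MECs and 98.5 and 104 CPM in WT macrophages, and was not called (log2 fold change 0.42). For the 4-1BB pair, then, the receptor differed between cell types where the ligand did not pass the test.

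The receptors of BAFF and APRIL, cytokines that keep B cells and plasma cells alive, were near 0 in MECs, and TACI and BCMA, but not BAFF-R, were called higher in WT macrophages. TACI (Tnfrsf13b, chr11:61126755-61149372, plus strand) lay at 0.162 and 0.203 CPM in WT MECs and at 9.41 and 18.3 CPM in WT macrophages (log2 fold change 6.21 ± 0.65 SE, edgeR adjusted P = 1.55e-05). BCMA (Tnfrsf17) had 2 counts over the WT MEC libraries and 43 over the WT macrophage libraries, at 1.25 and 0.856 CPM in the latter (ratio per depth 25.9, 95% counting interval 6.75 to 221, edgeR adjusted P = 0.0271). Its call was lost without WT MEC library 1 (adjusted P = 0.152), WT MEC library 3 (0.0923) or WT macrophage library 4 (0.0601). The summed B cell markers lay at 4.90 to 8.66 CPM in WT macrophages and 1.22 to 2.34 CPM in WT MECs, with 3 of 3 tested markers higher and 1 called (Cd79b), while Ms4a1 and Pax5 were at 0 in both WT macrophage libraries, and the part of B cell RNA in the TACI and BCMA values was not tested. The ligands themselves, BAFF (Tnfsf13b) at 2.20 and 5.66 CPM and APRIL (Tnfsf13) at 3.10 and 2.99 CPM in WT macrophages, were not called against MECs.

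Among the TRAIL receptors, the decoy Tnfrsf22 lay at 3.43 and 1.95 CPM in WT MECs and at 9.06 and 21.3 CPM in WT macrophages (log2 fold change 2.50 ± 0.45 SE, edgeR adjusted P = 0.00157). Its neighbour Tnfrsf26 went the same way, from 1.01 and 1.01 CPM to 6.11 and 7.79 CPM (log2 fold change 2.78 ± 0.53 SE, edgeR adjusted P = 0.00242). Tnfrsf23, the last of that cluster, was at 13 and 19.8 CPM in WT MECs and at 3.66 and 12.7 CPM in WT macrophages and was not called (log2 fold change -0.99, adjusted P = 0.121). Tnfrsf22 and Tnfrsf23 share 17.3% and 18.0% of their 50-base words, so reads could have been split between them. TRAIL itself (Tnfsf10) was at 11.7 and 12.9 CPM in WT MECs and 8.41 and 13.4 CPM in WT macrophages, and these overlapped.

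DR3 (Tnfrsf25), the death-domain receptor of TL1A, lay at 0.444 and 0.487 CPM in WT MECs and at 1.40 and 4.75 CPM in WT macrophages (log2 fold change 2.72 ± 0.87 SE, edgeR adjusted P = 0.0353), with no overlap. That call was lost without WT macrophage library 5 (adjusted P = 0.303), WT MEC library 1 (0.154) or 3 (0.15), or CebpbΔM MEC library 1 (0.0538) or 3 (0.0536), and with no filter on low counts. TL1A (Tnfsf15), at 0.929 and 1.34 CPM in WT MECs and 0 and 1.57 CPM in WT macrophages, overlapped between cell types.

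**Figure D2:**
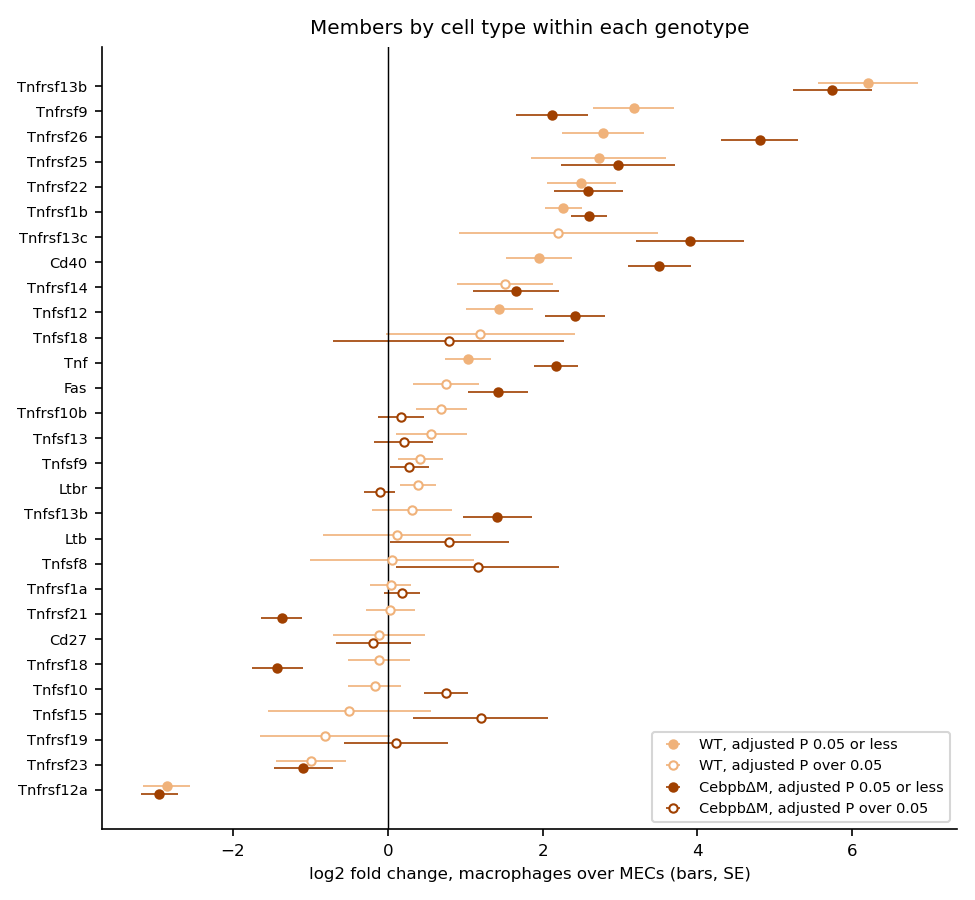
Log2 fold change of macrophages over MECs with its SE as a bar, in WT and in CebpbΔM libraries, filled where the adjusted P was 0.05 or less, for each tested member but Tnfsf14, Tnfrsf17 and Tnfrsf8, which had groups at or near 0. Tnfrsf12a lay lowest in both genotypes, at -2.86 and -2.95, and Tnfrsf13b lay at 6.21 and 5.74.

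In CebpbΔM glands, the same comparison called 16 of the 32 members higher and 4 lower in macrophages, against 36.8% of all genes tested (20.5% higher and 16.3% lower), with a median log2 fold change of 1.31 over members and 0.07 over all genes. The groups did not overlap for 21 members, against 52.9% of all genes. This comparison rests on 4 macrophage libraries in place of 2, and takes its means from no library of the WT comparison. Without CebpbΔM MEC library 1 or 3, 15 members were called in each case, with 21.4% and 27.7% of all genes, and Fas, Tnfrsf14, Tnfrsf23, Tnfrsf25 and Tnfsf13b were lost in both cases, with Tnfrsf18 also lost without library 3. Tnfrsf23 was lost without any 1 of the 4 CebpbΔM macrophage libraries, Tnfrsf14 without library 5, 6 or 7, and Tnfsf13b without library 7, whereas Tnfsf10 passed without CebpbΔM MEC library 3 or without either WT macrophage library. Fn14 was again lower in macrophages (log2 fold change -2.95, adjusted P = 2.35e-06), joined by DR6 (log2 fold change -1.37 ± 0.27 SE, adjusted P = 0.00171), GITR (-1.43 ± 0.33 SE, adjusted P = 0.00555) and Tnfrsf23 (-1.10, adjusted P = 0.0405). DR6 and GITR had stood at log2 fold changes of 0.03 and -0.12 in WT.

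Higher in CebpbΔM macrophages than in CebpbΔM MECs were TACI (log2 fold change 5.74, adjusted P = 2.59e-06), Tnfrsf26 (4.80, a 27.9-fold difference, adjusted P = 1.66e-05), BAFF-R (3.90, adjusted P = 0.000498), CD40 (3.51, an 11.4-fold difference, adjusted P = 3.89e-05) and TNFR2 (2.60, adjusted P = 5.15e-06). Tnf was 4.52-fold higher (log2 fold change 2.18 ± 0.28 SE, adjusted P = 9.76e-05), where the WT difference had been 2.05-fold. In CebpbΔM MECs LIGHT, BCMA and CD30 (Tnfrsf8) were at 0 in both libraries, so their difference is a lower bound taken from the floor of 3 counts per library: at least 50.05-fold, 27.6-fold and 7.92-fold higher in CebpbΔM macrophages. BAFF (1.42, adjusted P = 0.0269), FAS (1.42, adjusted P = 0.0128) and HVEM (Tnfrsf14, 1.65, adjusted P = 0.0347) passed the test here and had not in WT. TRAIL came to 0.75 and did not pass (adjusted P = 0.0595).

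The genotype comparison in MECs asked whether loss of Cebpb from myeloid cells went with a change of these genes in the epithelium. None of the 23 members tested passed an adjusted P of 0.05 in edgeR's quasi-likelihood test, by which 0.051% of the 15698 genes tested were called. At an unadjusted P under 0.05 there were 2 members, against 5.54% of all genes. The members split into 11 with a higher and 12 with a lower estimate in CebpbΔM, with a median log2 fold change of -0.01, the same as over all genes. Groups did not overlap for 8 members, 3 of them higher in CebpbΔM, where 28.2% of all genes did not overlap and 13.6% were higher without overlap.

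DR6 (Tnfrsf21, chr17:43016555-43089189, plus strand), a death-domain receptor known for restraining T and B cell responses and for its part in axon pruning, had the smallest P of the members in MECs. Its levels were 207 and 175 CPM in WT MECs and 545 and 361 CPM in CebpbΔM MECs. Both CebpbΔM libraries lay above both WT libraries, by 2.4-fold on average (log2 fold change 1.26 ± 0.24 SE, 95% confidence interval 0.74 to 1.79). Its unadjusted P was 0.000237 and its edgeR adjusted P was 0.0887, so that it did not pass. With a replicate block it passed, although the labels do not say that a library number marks a shared animal or batch. The call turned on the method: DR6 passed in edgeR's likelihood ratio test (adjusted P = 0.000622, with 1.14% of all genes called) and in DESeq2 (0.000425, with 1.03% called). It did not pass in the quasi-likelihood test with RLE factors, with the other filters or with all 10 libraries in 1 fit. With 1 library left out, whether it passed turned on which library that was, and such fits leave 1 library in a group. Its log2 fold change ranged from 0.97 to 1.51 over the alternatives.

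GITR (Tnfrsf18), a costimulatory receptor best known from regulatory T cells, came next, at 6.75 and 6.12 CPM in WT MECs and 9.86 and 12.4 CPM in CebpbΔM MECs. The groups did not overlap (log2 fold change 0.82 ± 0.30 SE, 95% confidence interval 0.17 to 1.47), but the adjusted P was 0.596. Of its exon bases, 27.2% overlap the opposite-strand gene Gm16008, so that its counts are uncertain. Tnf had the third smallest P: 21.0 and 17.2 CPM in WT MECs against 15.1 and 9.62 CPM in CebpbΔM MECs, lower in both CebpbΔM libraries (log2 fold change -0.61 ± 0.28 SE, 95% confidence interval -1.23 to 0.02, adjusted P = 0.93).

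The remaining members with the smallest P in MECs all had lower estimates in CebpbΔM. The decoy Tnfrsf22 lay at 3.43 and 1.95 CPM in WT and 2.07 and 1.51 CPM in CebpbΔM, with overlap (log2 fold change -0.57 ± 0.43 SE). CD40 lay at 2.06 and 3 CPM in WT and 1.62 and 1.82 CPM in CebpbΔM, with no overlap (-0.53 ± 0.42 SE). TL1A lay at 0.929 and 1.34 CPM in WT and 0.325 and 1.12 CPM in CebpbΔM, with overlap (-0.61 ± 0.62 SE), and its sign turned without CebpbΔM library 1 (0.03). No marker passed an adjusted P of 0.05 between genotypes in MECs, but single genes of several lists and some summed lists did not overlap. Epcam lay at 953 and 1833 CPM in WT and 2951 and 1939 CPM in CebpbΔM (log2 fold change 0.82 ± 0.34 SE, adjusted P = 0.746). Krt17 also lay higher in CebpbΔM without overlap, and Krt19, Cdh1 and Oxtr lay lower without overlap. Luminal markers had higher estimates for 2 of 8 and basal markers for 2 of 8, with median log2 fold changes of -0.05 and -0.12. Csf1r, a macrophage marker whose promoter drives the Cre, lay at 10.2 and 8.76 CPM in WT and 17.2 and 19.5 CPM in CebpbΔM (log2 fold change 0.97 ± 0.27 SE, adjusted P = 0.269). The macrophage list it belongs to had higher estimates for 2 of 5 tested, a median log2 fold change of -0.04 and sums that overlapped, at 314 to 379 CPM in WT and 227 to 403 CPM in CebpbΔM. Summed dendritic cell markers lay at 2.83 to 3.45 against 5.07 to 5.97 CPM, erythroid markers at 27.4 to 31.2 against 56.1 to 134 CPM and mast cell markers at 191 to 205 against 72.2 to 153 CPM. Only 1 of 6 dendritic cell and 1 of 4 mast cell markers were tested in MECs. The mast cell sum was only 108 to 161 CPM in WT macrophages, although 2 of 3 tested mast cell markers were called higher there than in WT MECs. This sum is therefore not read as a level of mast cells. Milk protein markers had higher estimates in CebpbΔM for 4 of 4 tested, 2 of them at an unadjusted P under 0.05, at summed levels that overlapped. Their part in the values of DR6, GITR, Tnf and CD40 was not tested. The members whose groups did not overlap were DR6, GITR and Cd27 among those higher, and Tnf, CD40, TNFR2, FAS and BAFF among those lower.

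In macrophages, the cells in which Csf1r-Cre acts, none of the 32 members tested passed an adjusted P of 0.05 in the comparison of CebpbΔM with WT, and 0% of the 17772 genes tested did. At an unadjusted P under 0.05 there were 8 members, 6 of them higher and 2 lower in CebpbΔM, against 9.76% of all genes. The likelihood ratio test called 1 member and 0.777% of all genes, and DESeq2 called 3 members and 1.13% of all genes. The estimate was higher in CebpbΔM for 19 members and lower for 13, with a median log2 fold change of 0.16 against 0.00 over all genes. The groups did not overlap for 9 members, 7 of them higher in CebpbΔM, where 18.5% of all genes did not overlap, 10.4% being higher.

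The 3 members with the smallest P in macrophages were receptors of low abundance. Tnfrsf26 lay at 6.11 and 7.79 CPM in WT macrophages and at 17.2, 13.5, 16.0 and 29.7 CPM in CebpbΔM macrophages. All 4 CebpbΔM libraries lay above both WT libraries, by 2.68-fold on average (log2 fold change 1.42 ± 0.38 SE, 95% confidence interval 0.56 to 2.28, edgeR adjusted P = 0.417, and 0.0315 in DESeq2).

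CD30 (Tnfrsf8), a receptor of activated lymphocytes, had no counts in either WT macrophage library and lay at 1.07, 1.02, 1.08 and 0.6 CPM in the CebpbΔM macrophages. Against the floor of 3 counts in each WT library, 0.146 CPM on average, this was at least 6.44-fold higher. The adjusted P was 0.417 in edgeR's quasi-likelihood test, 0.00201 in its likelihood ratio test and 0.0276 in DESeq2. BAFF-R lay at 0.351 and 0.618 CPM in WT macrophages and at 3.41, 1.75, 2.33 and 4.92 CPM in CebpbΔM macrophages. These groups did not overlap either (6.08-fold, log2 fold change 2.60 ± 0.73 SE, 95% confidence interval 0.96 to 4.25), with adjusted P values of 0.417 in edgeR and 0.0357 in DESeq2.

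TRAIL, the ligand of the decoys above, lay at 8.41 and 13.4 CPM in WT macrophages and at 22.9, 18.6, 22.7 and 16.4 CPM in CebpbΔM macrophages (log2 fold change 0.86 ± 0.28 SE, adjusted P = 0.435). CD40 lay at 10.4 and 9.22 CPM in WT and at 11.8, 26.4, 21.1 and 19.5 CPM in CebpbΔM (0.98 ± 0.34 SE, adjusted P = 0.445). BCMA lay at 1.25 and 0.856 CPM in WT and at 2.34, 3.01, 2.82 and 4.98 CPM in CebpbΔM (log2 fold change 1.6 ± 0.57 SE, adjusted P = 0.445). None of the 3 overlapped between genotypes. The members lower in CebpbΔM without overlap were TRAIL-R (Tnfrsf10b, log2 fold change -0.65 ± 0.25 SE, adjusted P = 0.474) and 4-1BB (-0.62 ± 0.27 SE, adjusted P = 0.51).

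Tnf lay at 41.1 and 37.0 CPM in WT macrophages and at 44.3, 74.3, 46.8 and 57.8 CPM in CebpbΔM macrophages. Every CebpbΔM library lay above both WT libraries, by as little as 44.3 against 41.1 CPM, and the test did not call it (log2 fold change 0.49 ± 0.24 SE, 95% confidence interval -0.06 to 1.04, adjusted P = 0.549). DR6 lay at 182 and 208 CPM in WT macrophages and at 183, 127, 133 and 257 CPM in CebpbΔM macrophages, with WT inside the CebpbΔM range (-0.18 ± 0.28 SE, 95% confidence interval -0.81 to 0.45). The estimates for Fn14 and LIGHT were both -0.05 on the log2 scale.

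Marker levels also differed by genotype in the macrophage libraries, although no marker passed an adjusted P of 0.05. Summed dendritic cell markers lay at 58.2 to 77.0 CPM in WT and 93.5 to 147 CPM in CebpbΔM macrophages, and the plasmacytoid dendritic cell gene Siglech at 16.7 and 27.4 CPM in WT against 56.6 to 94.3 CPM in CebpbΔM. The estimate was higher in CebpbΔM for 4 of 6 dendritic cell, 3 of 3 tested B cell, 3 of 3 tested T cell and 9 of 9 macrophage markers, for 3 of 4 tested plasma cell and 4 of 4 tested milk protein markers, for 8 of 8 basal and for 1 of 8 luminal markers. The summed plasma cell markers overlapped, at 666 to 700.1 CPM in WT and 612 to 671 CPM in CebpbΔM. That sum was higher in MECs, at 1122 to 1232 CPM in WT and 998 to 1304 CPM in CebpbΔM, so it is not read as a level of plasma cells. Of the 4 tested plasma cell markers, 3 had an unadjusted edgeR P under 0.05 in macrophages, against 9.76% of all genes. Their median log2 fold change over all 4 was 0.59. Summed T cell markers lay at 5.86 to 9.51 CPM in WT and 11.9 to 22.3 CPM in CebpbΔM, and B cell markers at 4.90 to 8.66 CPM and 7.80 to 15.4 CPM. Luminal markers were lower in CebpbΔM, at 5682 to 7738 CPM against 10604 to 10897 CPM, and macrophage markers lay at 2451 to 3590 CPM in WT and 3568 to 5265 CPM in CebpbΔM. Summed NK cell markers lay at 2.80 to 4.80 CPM in WT and 0.704 to 2.40 CPM in CebpbΔM, without overlap, although the 1 marker tested had a higher estimate in CebpbΔM, and 0 of 5 fibroblast markers had a higher estimate. The part of these in the values of Tnfrsf26, CD30, BAFF-R, BCMA, TRAIL, CD40 and Tnf was not tested. The B cell markers Ms4a1 and Pax5 were at 0 in WT macrophages, and Cd3e lay at 0.801 to 2.04 CPM in all 6 macrophage libraries.

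**Figure D3:**
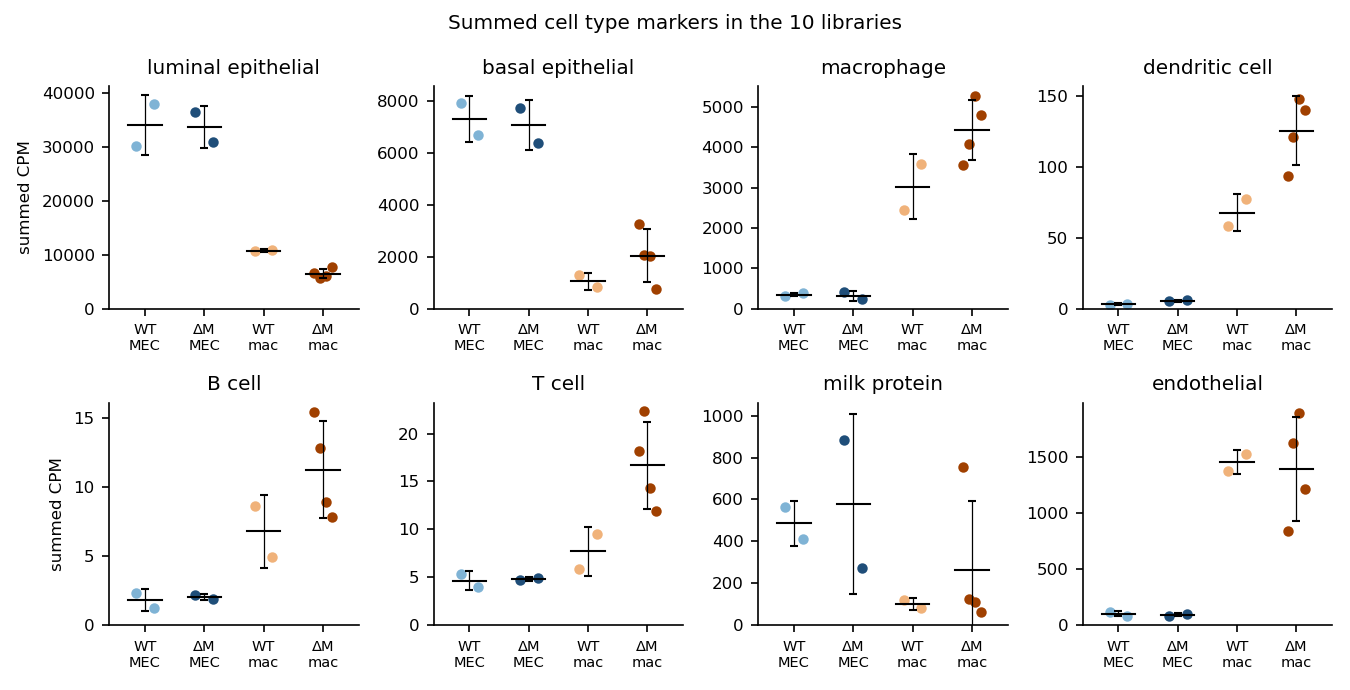
Summed TMM-scaled CPM of 8 marker lists by cell type and genotype, 1 dot for each library, with the group mean as a line and the SD as a bar. In macrophage libraries the dendritic cell sum was 58.2 to 77.0 CPM for WT and 93.5 to 147 CPM for CebpbΔM, and the luminal sum was 10604 to 10897 CPM against 5682 to 7738 CPM.

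**Figure D4:**
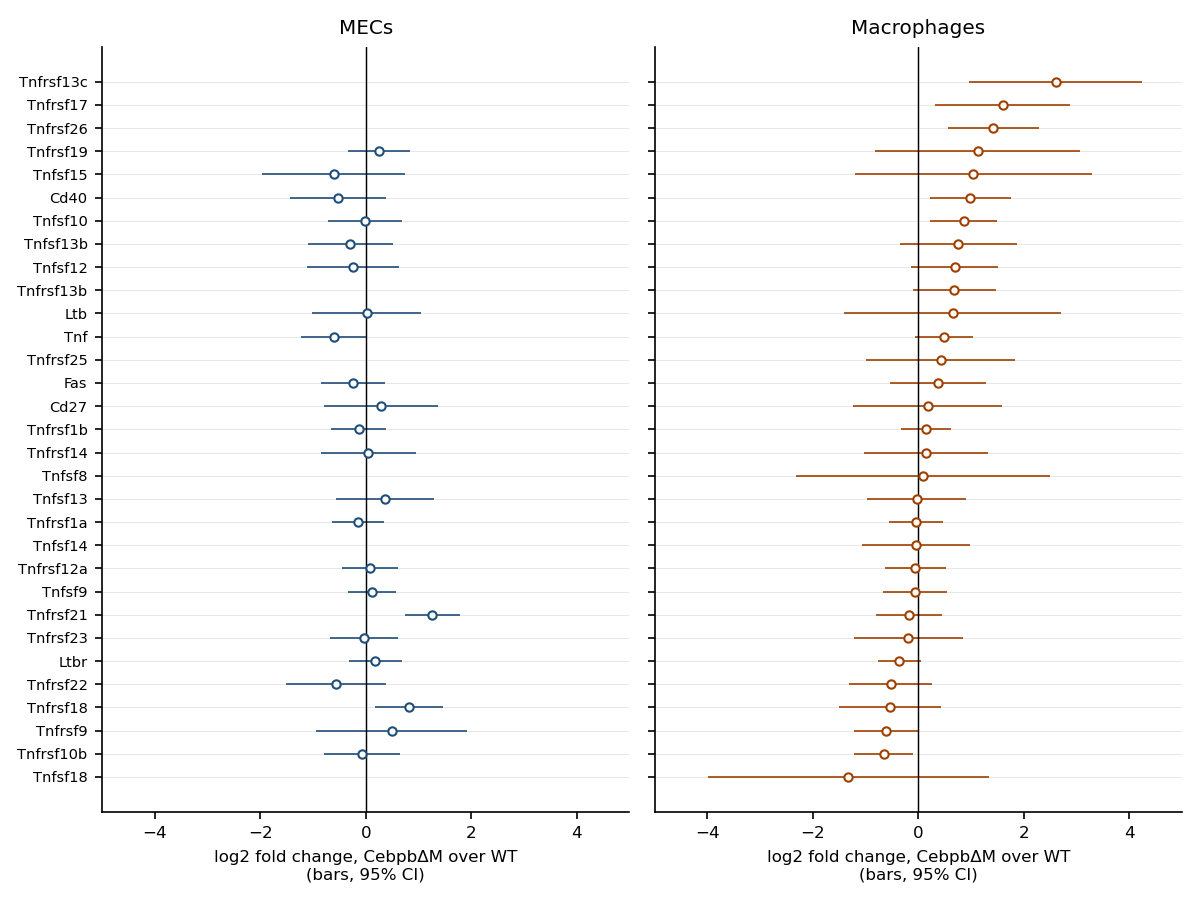
Log2 fold change of CebpbΔM over WT with its 95% confidence interval for each tested member but Tnfrsf8, in MECs on the left and macrophages on the right. Tnfrsf21 stood at 1.26 in MECs and -0.18 in macrophages, and Tnf at -0.61 and 0.49, and no member passed an adjusted P of 0.05.

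An interaction term fitted over the 10 libraries asked whether macrophages and MECs differed in their genotype effect. No member passed, and 0% of the 18323 genes tested did (adjusted P = 0.94 for each member named here). At an unadjusted P under 0.05 there were 6 members, against 5.25% of all genes. DESeq2, which called 0.147% of all genes, called no member, and the likelihood ratio test, which called 0.289%, called CD30 (adjusted P = 0.00111). For DR6 the effect was lower in macrophages by 1.40 on the log2 scale (-1.40 ± 0.42 SE, 95% confidence interval -2.32 to -0.49). For Tnf it was higher by 1.14 (± 0.40 SE, 95% confidence interval 0.28 to 2.01), for CD40 by 1.56 (± 0.61 SE) and for Tnfrsf26 by 2.03 (± 0.84 SE), and for GITR it was -1.31 (± 0.53 SE).

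**Figure D5:**
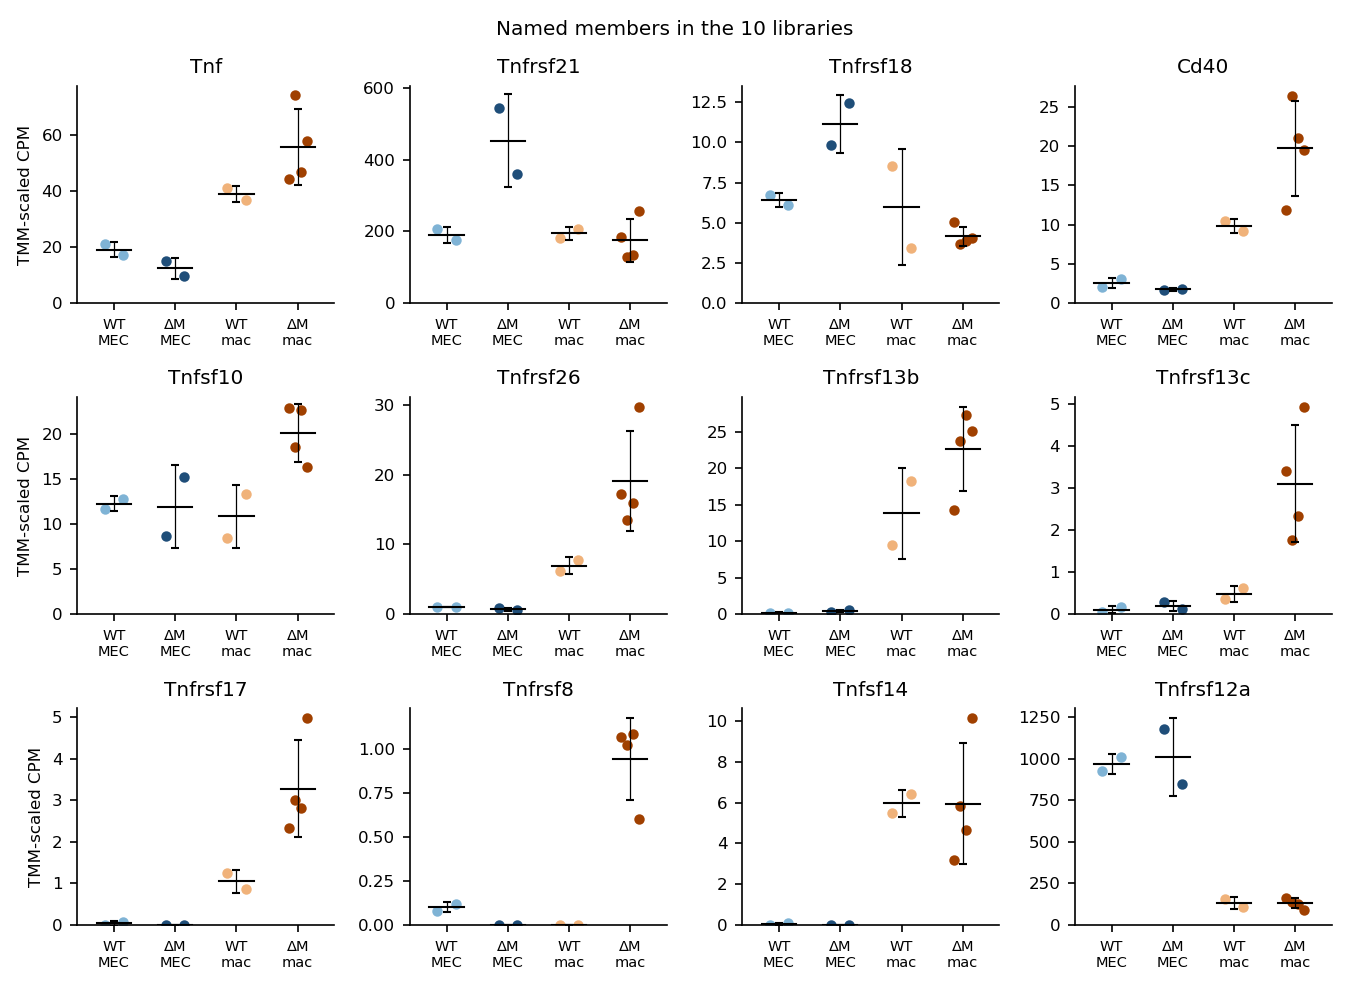
TMM-scaled CPM of 12 members by cell type and genotype, 1 dot for each library, with the group mean as a line and the SD as a bar. For Tnfrsf21 the CebpbΔM MEC libraries (545 and 361 CPM) lay above the other 8, which ranged from 127 to 257 CPM.

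The pathway that these receptors use was followed with 43 genes of TRAF adaptors, death signalling, kinases, NF-kB subunits, feedback inhibitors and ligand shedding, all of which were tested. None passed in either genotype comparison or in the interaction. At an unadjusted P under 0.05 there was 1 of the 43 in MECs, where 5.54% of all genes were, 7 in macrophages, against 9.76%, and 5 in the interaction, against 5.25%. In MECs the smallest P was that of the adaptor Traf4, at 20.2 and 23.8 CPM in WT and 52.7 and 35.9 CPM in CebpbΔM (log2 fold change 1.03 ± 0.25 SE, adjusted P = 0.200), which also has roles outside this pathway. In macrophages it was that of Tnfaip3, which encodes A20, an inhibitor of the pathway, at 93.7 and 108 CPM in WT and 146, 176, 192 and 155 CPM in CebpbΔM (0.71 ± 0.18 SE, adjusted P = 0.417). Traf1 (0.94 ± 0.27 SE, adjusted P = 0.424) and Birc3 (0.52 ± 0.17 SE, adjusted P = 0.434) followed.

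Between cell types, 11 of the 43 were higher and 4 lower in WT macrophages than in WT MECs, against 16% and 12.1% of all genes, and 17 and 4 in CebpbΔM, against 20.5% and 16.3%. Of the WT calls, the death signalling genes Ripk3, Casp8 and Mlkl were higher (3 of 6), the adaptors Traf1, Traf5 and Tradd were higher and Traf2 was lower, and the NF-kB subunits Rel and Nfkb1 were higher and Nfkb2 was lower. Of the genes for TNF shedding, Adam17, the protease that releases TNF, was higher (log2 fold change 0.96), while its partners Rhbdf2 (-1.35) and Rhbdf1 (-0.78) were lower in WT macrophages. Of 5 relatives outside the symbol rule, the ligand Eda and the receptors Edar, Eda2r, Ngfr and Relt, none passed in WT, and in CebpbΔM Relt was higher (1.08, adjusted P = 0.0058) and Ngfr, a basal epithelial receptor, lower (-1.66, adjusted P = 0.0017) in macrophages.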

How the data were processed

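RNA was sequenced from 10 libraries. The authors trimmed reads with Trimmomatic, aligned them with HISAT2 to GRCm38 and counted read pairs per Ensembl gene with featureCounts in its reverse-stranded mode, and the deposited values are raw counts, 1 table for each cell type. For 109 genes overlapped on the opposite strand, the overlapping gene's count density was a median 1.24 times (quartiles 0.435 to 2.57) its partner's, so whether the counts separate strands is not settled, and genes that overlap on opposite strands are uncertain. Symbols came from the reference annotation for 55227 of 55487 genes. Genes under 300 nt (8951) and genes not over 1 CPM in at least 2 libraries of a comparison were left out.

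Groups were compared with edgeR 4.0.16 (R 4.3.3): TMM factors (0.913 to 1.08), the quasi-likelihood test, two-sided, and Benjamini-Hochberg adjustment over all genes tested (15698 in MECs, 17772 in macrophages, 18323 jointly), with 0.05 as the threshold. SE is the absolute log2 fold change over the square root of F. Groups were said not to overlap where every library of one lay above every library of the other. The likelihood ratio test named in the study's methods, DESeq2 1.42.0, RLE factors, other filters, a replicate block and leaving out each library were alternatives. The test was checked on a set of simulated counts for each comparison, with 200 genes changed in each. It recovered 37.8% of 2-fold and 92.9% of 4-fold changes in MECs, and 7.45% and 71.4% in macrophages. Between WT cell types it recovered 8.08% and 71.1%. In the data 28.1% of genes were called between WT cell types, far more than were changed in the simulation. The adjusted threshold was therefore stricter there, and these shares do not give the recovery in the data. Of the calls in these 3 comparisons, 11.6%, 17.2% and 11.5% fell on unchanged genes, above the threshold of 0.05. Promoters were read with Python 3.11.15.

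Given with full values are the 6 members with the smallest P in each genotype comparison, those past the threshold or with a P under 0.05 in the interaction, up to 6 called members in each direction between WT cell types, Tnf and Tnfrsf21, and, of the pathway lists, called genes or those with the smallest P. Other members are given by pair, level and count, with some named after their values were seen. The members and all lists were chosen with earlier results of these data known. Intervals and floors of counts cover counting error only, since reads carried no molecular identifiers. The authors' own comparison results were not used here.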

Additional observations from a re-analysis of the deposited data

Results flagged for a closer look

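In 5 of the 49 sets of values tested for a library far from the rest of the 4 CebpbΔM macrophage libraries, the gap passed Dixon's 95% critical value for 4 samples, and chance alone gives about 1 in 20. CD30 (Tnfrsf8) was lowest in library 7, at 0.5997 CPM, where the other 3 lay at 1.02 to 1.08 CPM. APRIL (Tnfsf13) was highest in library 5, at 4.13 CPM, where the others lay at 2.49 to 2.76 CPM. The GITR ligand Tnfsf18 was highest in library 5, at 1.36 CPM, and the others lay at 0.0542 to 0.153 CPM, near the floor of 3 counts. The summed milk protein markers were highest in library 4, at 753 CPM, against 61.6 to 123 CPM in the others, and the summed adipocyte markers were highest in library 6, at 11.1 CPM, against 4.17 to 5.22 CPM. Groups of 2 libraries were not tested in this way.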

How the results depend on the processing

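Over the alternatives, 549 values of named fold changes kept their direction and side of the threshold, 10 newly passed, 11 no longer passed and 5 turned in sign. The number of members called in MECs was 1 in place of 0 (DR6) with the likelihood ratio test, with DESeq2, without CebpbΔM library 3 and without WT library 1. In macrophages it was 1 in place of 0 with the likelihood ratio test (CD30) and 3 with DESeq2 (CD30, Tnfrsf26 and BAFF-R), and in the interaction 1 with the likelihood ratio test (CD30). Leaving out 1 library at a time gave 0 to 1 calls in MECs, 0 in macrophages and in the interaction, 7 to 12 between WT cell types (15% to 29.7% of all genes) and 15 to 21 between CebpbΔM cell types (21.4% to 39% of all genes), and where this left 1 library in a group its spread was assumed to be that of the others. Over all genes, the quasi-likelihood test, the likelihood ratio test and DESeq2 called 8, 179 and 161 in MECs, 0, 138 and 201 in macrophages, and 0, 53 and 27 in the interaction. Without a filter on low counts no gene was called in MECs, and leaving out 1 library gave 5 to 354 there. The sign turned for TL1A in MECs without CebpbΔM library 1 (0.0325, with -0.86 as the lowest value with 1 library left out) and for the interaction of Tnfrsf22 without CebpbΔM MEC library 3 (-0.12), WT MEC library 1 (-0.37), CebpbΔM macrophage library 7 (-0.002) or WT macrophage library 4 (-0.43, with 0.80 as the highest). The cause of these changes was not tested. Members that fell under the filter in an alternative gave no value there. Low counts left 15 of the 38 members untested in MECs and 6 in macrophages.

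Libraries with the same number in both genotypes deviated together with r of 0.101 in MECs, and 0.121 and -0.0774 for macrophage numbers 4 and 5, and the labels do not say that a number marks a shared animal or batch, so they were not taken as pairs, and whether they share a batch is not settled. A replicate block gave 1 member call in MECs (DR6, adjusted P = 0.00106), none in macrophages and none in the interaction, with 229, 89 and 4 genes called in all.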
